A study of Homo sapiens with 12 samples.

Results

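Solute carriers are membrane proteins that move nutrients, ions, vitamins and metabolites across the plasma membrane and across the membranes of mitochondria, lysosomes and the Golgi apparatus. Their genes carry the symbol SLC, a family number and a member number, and a family shares sequence more often than a single substrate. Myeloid cells use them to take up sugars, amino acids, nucleosides and metals for growth, and some members carry antileukaemic nucleoside drugs into the cell. The genes described here are 101 solute carrier symbols, chosen by their measured level in HL‐60 cells: each was listed at 5 RPKM (reads normalised for gene length and library size) or more in at least 3 of 12 RNA sequencing libraries, out of 58233 genes in the table.

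HL‐60 is 1 established human myeloid leukaemia cell line of wild-type genotype in these labels, so the values describe a single line. The groups were untreated cells, cells given 100 nM ATRA (all-trans retinoic acid, a ligand of the retinoic acid receptors), cells given 500 nM palbociclib (an inhibitor of the cell cycle kinases CDK4 and CDK6) and cells given both, with 3 libraries in each group. All groups share the medium with serum, and the drugs acted for 3 h. The labels number the libraries of a group without saying whether they came from separate cultures, so p-values measure only the spread between these libraries, which may be technical.

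The table holds 467 symbols that begin with SLC and a digit. Of these, 70 were pseudogenes, none of which reached the level. A further 8 carriers (SLC7A11, SLC3A2, SLC7A5, SLC7A1, SLC2A1, SLC2A3, SLC16A1 and SLC16A3) belong to other gene groups and were left out by name, which left 389 symbols. The other 288 symbols lay below the level, and 226 of them were listed at 0 in all 12 libraries. All 101 genes matched a protein coding gene of GENCODE v44 by identifier, and none of the 20 antisense symbols reached the level. The level chose the genes, so levels are described without a test. SLC16A7 (highest value 5 RPKM), SLC27A2 and SLC39A13 lay just inside it, and SLC17A5, SLC25A4 and SLC41A1 just outside, each of these with 4 RPKM as the third highest value.

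In 72 genes all 12 libraries reached 5 RPKM, and in 29 only some did, with 4 libraries as the fewest. SLC16A7, SLC2A5, SLC2A6, SLC39A13, SLC43A2, SLC44A1 and SLC5A3 reached it only in libraries that held ATRA, so these 7 entered through those libraries alone. SLC25A15 and SLC9B2 reached it only in libraries without ATRA. The symbol is not that of a carrier in 3 genes. SLC9A3R1 encodes a scaffold protein that anchors membrane proteins to the cortex (NHERF1 in GENCODE v44), SLC2A4RG encodes a transcription factor and SLC4A1AP an adaptor protein.

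The labelled cell type was checked against marker genes. Of 10 myeloid genes, 9 were found in every library (MPO, the granule peroxidase, at 1077 to 1579 RPKM), and ELANE, neutrophil elastase, was listed at 0 or 1. All 17 markers of T, B, erythroid, platelet, epithelial and stromal cells were at 0 or 1 in every library. DHRS3, a retinoid reductase induced by retinoic acid, had a mean of 0.333 RPKM in untreated cells and 45.0 RPKM with ATRA (3 libraries each). CYP26A1, RARB and TGM2, the other genes chosen to check ATRA, were listed at 0 in every library, also with ATRA. CCNE1, a cyclin of the G1/S transition, was at 13 to 15 RPKM in untreated cells and at 5 RPKM in every palbociclib library. The values of a library summed to 358455 to 390247 RPKM over all genes. These sums are no read totals, and the depth of each library is not given in the table.

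Mitochondrial carriers held the highest levels among the 101 genes. Mean RPKM over the 12 libraries ran from 3.83 to 288 with a median of 9.17, and 22 genes reached a mean of 20. SLC25A5 and SLC25A6, adenine nucleotide translocases that exchange ADP for ATP across the inner mitochondrial membrane, led with means of 288 and 164 RPKM. They were followed by SLC25A3, the mitochondrial phosphate carrier (69.3 RPKM), and SLC25A39, linked to glutathione import into mitochondria (64.8 RPKM).

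**Figure D1:**
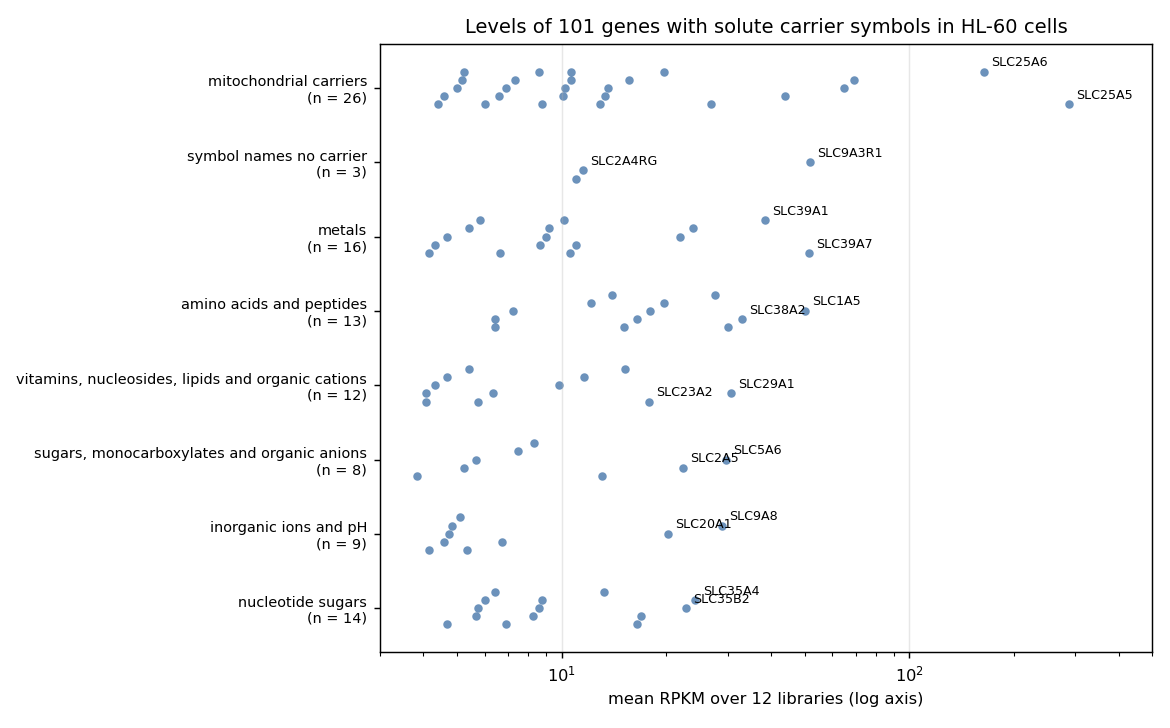
Mean RPKM over the 12 libraries (log axis) for each of the 101 genes, 1 point a gene, in rows by the substrate group of its family with the number of genes; the 2 highest genes of each row are named. Mitochondrial carriers reach 288 RPKM (SLC25A5), and most points lie between 4 and 30 RPKM.

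Below these, SLC9A3R1 had a mean of 51.8 RPKM, SLC39A7, which releases zinc from the endoplasmic reticulum, 51.4, and SLC1A5, a plasma membrane glutamine transporter, ranked next with 40 to 62 RPKM over the libraries. SLC25A1, the mitochondrial citrate carrier (43.8 RPKM), SLC39A1, a zinc importer of the plasma membrane (38.4), and SLC38A2, a neutral amino acid transporter (32.9), completed the 10 highest. RPKM is per gene length, which allows only a rough comparison of these levels between genes. Reads on exon bases shared with another gene can be left out of the counts. SLC39A1 shares 60.8% of its exon bases on its own strand and SLC1A5 23.8% on the opposite strand. Reads of the adenine nucleotide translocases can match their processed pseudogenes and each other, and how the counting shared them was not examined.

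By family, 26 genes were mitochondrial carriers, 16 carried metals, 14 belonged to the nucleotide sugar family SLC35, 13 carried amino acids or peptides, 12 vitamins, nucleosides, lipids or organic cations, 9 inorganic ions and 8 sugars, monocarboxylates or organic anions, beside the 3 genes that encode no carrier. Together the 101 genes summed to 1802 to 1878 RPKM in a library, between 0.475% and 0.514% of all RPKM. The sum over the sugar group was 74.0 ± 1.0 RPKM in untreated cells (SD, n = 3) and 118 ± 8.72 with ATRA (SD, n = 3). Of its 8 genes, 4 (SLC2A5, SLC2A6, SLC5A3 and SLC16A7) entered only through ATRA libraries and summed to 13.0 and 60.7 RPKM, whereas the other 4 summed to 61.0 ± 2.0 in untreated cells and 57.3 ± 2.89 with ATRA (SD, n = 3 each), so the higher sum came from genes that the choice favoured. Over the amino acid group it was 284 ± 8.08 RPKM in untreated cells and 234 ± 4.93 with ATRA (SD, n = 3 each). The sums over metals were 226 ± 3.79 and 225 ± 11.6 RPKM, and differed by less than the spread between libraries.

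The first comparison asked what ATRA alone did to these genes within 3 h. limma was fitted to log2(RPKM + 0.1) of all 7820 genes at that level, with an adjusted p under 0.001 as the threshold for a call. It called 12 of the 101 genes, where 4.72% of all genes fitted were called. Of the 12, 8 were higher with ATRA (2.77% of all genes fitted) and 4 were lower (1.94%). At an adjusted p under 0.05, the wider threshold for which rose and fell are used below, 14 rose and 24 fell, where 20.3% of all genes passed (8.71% rose and 11.6% fell). SLC2A5, SLC43A2 and SLC2A6 are among the 8 and also among the genes that entered only through ATRA libraries, so their part of the count follows from the choice of genes. Over the 92 genes that did not enter through libraries with ATRA alone or without it alone, 5 were called higher and 4 lower.

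The count of 8 higher and 4 lower was 7 and 2 with each library centred on the median of all genes, and 7 and 5 with libraries scaled to the same sum. At the wider threshold, scaling to the same sum gave 11 higher and 32 lower. A fit blocked on replicate number gave 20 rising and 40 falling genes at 0.05 (14.7% and 20.7% of all genes). Among genes said below not to pass with ATRA, SLC29A1, SLC39A3, SLC39A10, SLC39A13, SLC5A3, SLC44A1, SLC38A2, SLC43A1 and SLC35A4 passed 0.05 with the block (limma adjusted p from 0.00235 for SLC43A1 to 0.0394 for SLC39A3). Of these, SLC39A13, SLC5A3 and SLC44A1 had entered only through ATRA libraries.

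SLC2A5, the fructose transporter of the plasma membrane, showed the largest difference. It lies on chromosome 1 (hg38, 9035106 to 9088478, minus strand). It was listed at 4, 3 and 3 RPKM in the untreated libraries, 35, 44 and 41 with ATRA, 4, 3 and 3 with palbociclib and 37, 48 and 43 with both drugs. Every library with ATRA was far above every library without it. SLC2A5 reached the level only in libraries with ATRA, so the direction was favoured by the choice of genes. The level was 11.7-fold higher with ATRA (log2 fold change 3.55 ± 0.15 SE, limma adjusted p = 1.8e-07), and the call held in all 22 alternative settings. The 250 bases before its RefSeq start (GRCh38.p14, chr1:9069636-9069885, minus strand), which lie inside the longer GENCODE span, are shown because of this largest log2 fold change. They hold none of the motifs searched and are printed in lower case throughout.
SLC2A5: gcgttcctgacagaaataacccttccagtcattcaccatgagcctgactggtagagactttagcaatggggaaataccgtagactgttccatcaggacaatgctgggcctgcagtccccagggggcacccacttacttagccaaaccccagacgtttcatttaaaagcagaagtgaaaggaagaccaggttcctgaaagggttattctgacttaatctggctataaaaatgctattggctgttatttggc

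2 other genes assigned to sugar transport rose. SLC2A6, a hexose transporter of lysosomal membranes on chromosome 9 (133471094 to 133479127), was listed at 2 RPKM in all 3 untreated libraries, at 5, 10 and 9 with ATRA, at 2, 3 and 2 with palbociclib and at 6, 11 and 9 with both. Groups with and without ATRA did not overlap, and the libraries numbered 1 were the lowest with ATRA. SLC2A6 entered only through libraries with ATRA, so this separation was favoured by the choice of genes. The log2 fold change was 1.89 ± 0.28 SE (limma adjusted p = 0.000822). SLC45A4, placed by its family among sugar carriers, was at 4, 5 and 4 RPKM in untreated cells, 9, 11 and 11 with ATRA, 4, 5 and 5 with palbociclib and 9, 12 and 11 with both. It did not overlap either, with a log2 fold change of 1.24 (limma adjusted p = 0.00015).

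**Figure D2:**
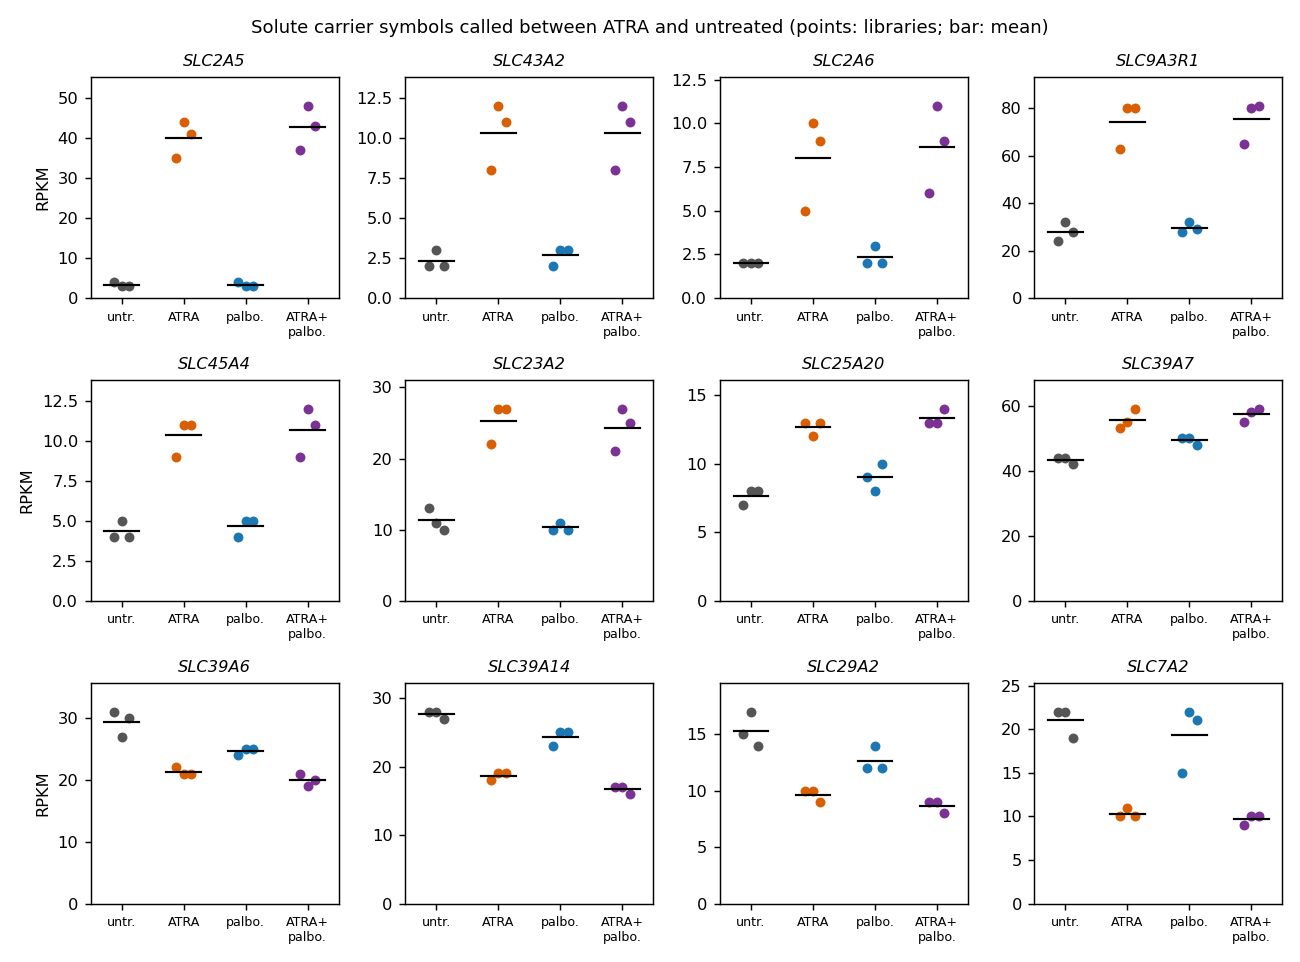
RPKM in each library (points, 3 a group; bar, mean; linear axes from 0) of the 12 genes called between ATRA and untreated cells. In all 12 panels the ATRA libraries do not overlap the untreated ones, and the libraries with both drugs lie near those with ATRA. The genes were chosen by a call on these same libraries, so the lack of overlap largely follows from that choice.

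Of the 8 sugar, monocarboxylate and organic anion genes, 3 rose (8.71% of all genes fitted) and 1 fell (11.6%). SLC2A5 and SLC2A6 of the 3 entered only through ATRA libraries. The one that fell was SLC5A6, the sodium-dependent multivitamin transporter for biotin and pantothenate, which shares its family with glucose transporters. It was listed at 35, 33 and 37 RPKM in untreated cells and 29, 24 and 28 with ATRA. All ATRA libraries lay below all untreated ones (log2 fold change -0.38, limma adjusted p = 0.0131). SLC5A3, the myo-inositol transporter, was at 4 RPKM in each untreated library and at 5, 9 and 10 with ATRA, which did not pass (limma adjusted p = 0.0607). SLC50A1, the remaining gene of the 3 highest in this group, was at 11 to 14 RPKM in every library.

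Of 13 amino acid and peptide carriers, 6 fell (11.6% of all genes fitted) and 1 rose (8.71%) with ATRA. In 10 of the 13 the log2 fold change was negative, and the median log2 fold change was -0.28 against -0.01 over all genes fitted. The one that rose was SLC43A2, a facilitated carrier of branched-chain and other large neutral amino acids on chromosome 17 (1569268 to 1628886). It was listed at 2, 3 and 2 RPKM in untreated cells, 8, 12 and 11 with ATRA, 2, 3 and 3 with palbociclib and 8, 12 and 11 with both. The groups with ATRA stood above both others without overlap (log2 fold change 2.10 ± 0.23 SE, limma adjusted p = 0.000114). SLC43A2 entered only through libraries with ATRA, so this separation was favoured by the choice of genes.

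SLC7A2, a carrier of arginine and other cationic amino acids, fell by more than any other gene of the group. It was listed at 22, 22 and 19 RPKM in untreated cells, 10, 11 and 10 with ATRA, 15, 22 and 21 with palbociclib and 9, 10 and 10 with both. Both groups with ATRA lay below both groups without it. The level with ATRA was 2.02-fold lower (log2 fold change -1.01 ± 0.13 SE, limma adjusted p = 0.000316). SLC1A5 fell by 0.25 on the log2 scale (limma adjusted p = 0.0432), from 53, 62 and 52 RPKM to 48, 44 and 48. Its relative SLC1A4, a transporter of small neutral amino acids, was at 16, 17 and 17 RPKM and then at 12, 12 and 13 (log2 fold change -0.43, limma adjusted p = 0.00143). In neither did the groups overlap, and 23.8% of the exon bases of SLC1A5 are shared with genes on the opposite strand.

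Family SLC38 includes sodium-coupled importers of glutamine and alanine. Of its 4 genes, 0 rose (8.71% of all genes fitted) and 1 fell (11.6%) with ATRA. SLC38A1 fell from 39, 36 and 34 RPKM to 24, 28 and 25 (limma adjusted p = 0.00606), whereas SLC38A2, at 32, 42 and 33 RPKM and then 26, 34 and 29, overlapped between groups and did not pass (limma adjusted p = 0.275). SLC15A4, a lysosomal histidine and peptide transporter, was the sixth gene of the group that fell, from 9, 8 and 9 RPKM to 7, 5 and 6.

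Family SLC43 shows how far relatives differed. SLC43A3, known as a transporter of purine nucleobases although its family carries amino acids, was listed at 26, 23 and 28 RPKM in untreated cells, 18, 15 and 18 with ATRA, 22, 20 and 22 with palbociclib and 16, 13 and 15 with both. Its levels with ATRA were all below those of untreated cells (log2 fold change -0.59, limma adjusted p = 0.00239), the opposite direction to SLC43A2. SLC43A1, another large neutral amino acid carrier, overlapped between groups at 19, 17 and 21 against 17, 13 and 17 RPKM and did not pass (limma adjusted p = 0.185). Another gene on the same strand shares 29.9% of the exon bases of SLC43A3.

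Zinc importers of family SLC39 moved in both directions. Of 10 genes at the level, 2 rose (8.71% of all genes fitted) and 3 fell (11.6%) with ATRA. SLC39A7 on chromosome 6 (33200305 to 33204439) was listed at 44, 44 and 42 RPKM in untreated cells, 53, 55 and 59 with ATRA, 50, 50 and 48 with palbociclib and 55, 58 and 59 with both. All groups with a drug lay above the untreated group, palbociclib less so, and the difference with ATRA was 1.28-fold (log2 fold change 0.36 ± 0.05 SE, limma adjusted p = 0.000869). SLC39A7 shares 9.02% of its exon bases with RXRB on the opposite strand. SLC39A1 was listed at 33, 34 and 32 RPKM in untreated cells and 40, 47 and 44 with ATRA, without overlap (log2 fold change 0.40, limma adjusted p = 0.0106), and 60.8% of its exon bases are shared with a gene on the same strand.

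SLC39A14, which imports zinc and non-transferrin iron, was at 28, 28 and 27 RPKM in untreated cells, 18, 19 and 19 with ATRA, 23, 25 and 25 with palbociclib and 17, 17 and 16 with both. The 4 groups did not overlap. With ATRA the log2 fold change was -0.57 ± 0.05 SE (limma adjusted p = 3.95e-05). SLC39A6, a plasma membrane zinc importer, was listed at 31, 27 and 30 RPKM in untreated cells, 22, 21 and 21 with ATRA, 24, 25 and 25 with palbociclib and 21, 19 and 20 with both. Every treated library lay below every untreated one (log2 fold change with ATRA -0.46 ± 0.06 SE, limma adjusted p = 0.000524).

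**Figure D3:**
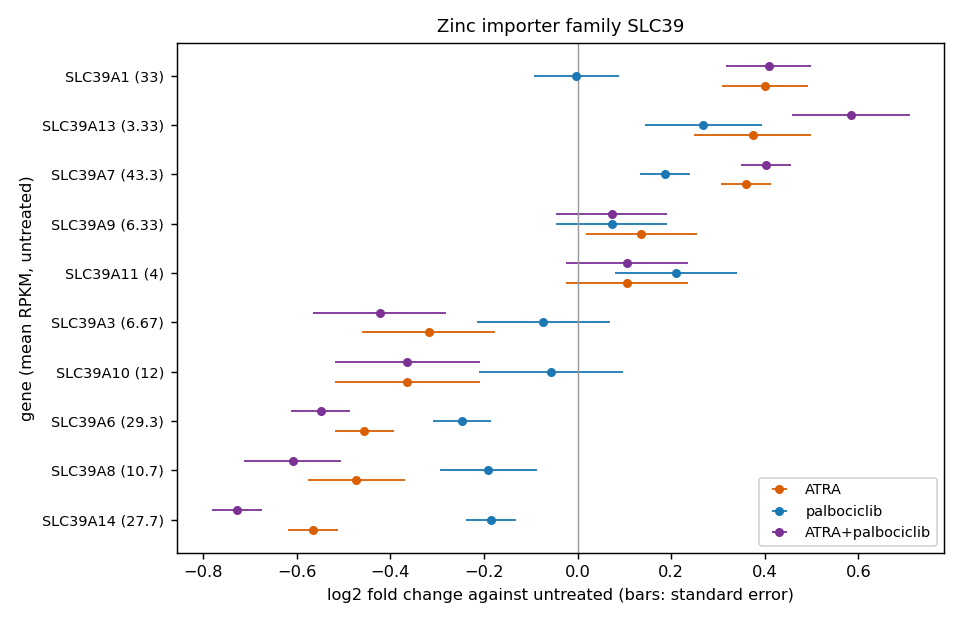
Log2 fold change against untreated cells (point; bar, standard error from limma) of the 10 SLC39 genes at the level, for ATRA, palbociclib and both drugs, ordered by the ATRA value; untreated mean RPKM in parentheses. SLC39A1 and SLC39A7 lie above 0 with ATRA and SLC39A6, SLC39A8 and SLC39A14 below it.

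SLC39A8, a zinc and manganese importer, fell from 10, 11 and 11 RPKM to 8, 8 and 7 (log2 fold change -0.47, limma adjusted p = 0.00857). SLC39A3, SLC39A9, SLC39A10, SLC39A11 and SLC39A13 did not pass with ATRA alone. The opposing family SLC30, whose members export zinc from the cytosol, had 5 genes at the level and none passed in any comparison in the limma fit of 12 libraries without the block, at an adjusted p under 0.05. The highest of these, SLC30A1, was at 13, 12 and 11 RPKM in untreated cells and 10, 11 and 10 with ATRA. Over all 16 metal carriers the median log2 fold change was -0.01, equal to that of all genes to 2 decimals. Family members named beyond the leading genes of a comparison were chosen after their values were seen.

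Of 26 mitochondrial carriers, 2 rose (8.71% of all genes fitted) and 6 fell (11.6%) with ATRA. A negative log2 fold change was found in 19, and the share of all genes with one was not counted. The median log2 fold change was -0.19, against -0.01 over all genes fitted. SLC25A20, which brings acylcarnitines into mitochondria for fatty acid oxidation, lies on chromosome 3 (48856926 to 48898904). It was listed at 7, 8 and 8 RPKM in untreated cells, 13, 12 and 13 with ATRA, 9, 8 and 10 with palbociclib and 13, 13 and 14 with both. Groups with ATRA did not overlap those without (log2 fold change 0.72 ± 0.09 SE, limma adjusted p = 0.000243).

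SLC25A6 was at 140, 145 and 144 RPKM in untreated cells, 176, 167 and 160 with ATRA and 178, 161 and 160 with palbociclib, so that both drugs gave higher values in all their libraries. The ATRA difference passed (log2 fold change 0.23, limma adjusted p = 0.0156) and the palbociclib difference did not (limma adjusted p = 0.0622, or 0.0149 with the block). SLC25A5, at 291, 292 and 296 RPKM in untreated cells, was at 323, 278 and 271 with ATRA, overlapping them, and SLC25A3 was at 64 to 77 RPKM in all 12 libraries. Among the carriers that fell were SLC25A12, an aspartate and glutamate exchanger, SLC25A17, of peroxisomes, SLC25A22, for glutamate, SLC25A32, for folate or flavin, and SLC25A37, which brings iron into mitochondria. The exon bases of SLC25A32 are 69.7% shared with another gene on its strand.

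Among 12 carriers of vitamins, nucleosides, lipids and organic cations, 1 rose (8.71% of all genes fitted) and 2 fell (11.6%) with ATRA. SLC23A2, a sodium-dependent vitamin C transporter on chromosome 20 (4852356 to 5010293), was listed at 13, 11 and 10 RPKM in untreated cells, 22, 27 and 27 with ATRA, 10, 11 and 10 with palbociclib and 21, 27 and 25 with both. The lowest library with ATRA was well above the highest without it. The level was 2.23-fold higher (log2 fold change 1.16 ± 0.12 SE, limma adjusted p = 8.38e-05). SLC27A4, a fatty acid transport protein with acyl-CoA synthetase activity, was at 12 RPKM in each untreated library and at 9, 7 and 8 with ATRA (log2 fold change -0.59, limma adjusted p = 0.00531).

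The equilibrative nucleoside transporters SLC29A1 and SLC29A2, which carry nucleosides and nucleoside drugs such as cytarabine down their gradients, are given together. SLC29A2 on chromosome 11 (66362521 to 66372214) was listed at 15, 17 and 14 RPKM in untreated cells, 10, 10 and 9 with ATRA, 12, 14 and 12 with palbociclib and 9, 9 and 8 with both. Groups with ATRA did not overlap those without it, and palbociclib overlapped untreated cells at 14 RPKM. A gene on the opposite strand shares 10.3% of its exon bases. With ATRA the log2 fold change was -0.66 ± 0.09 SE (limma adjusted p = 0.000621). SLC29A1 was at 40, 37 and 40 RPKM in untreated cells, 34, 27 and 31 with ATRA, 31, 26 and 26 with palbociclib and 29, 22 and 25 with both. Every treated library was below every untreated one, and the difference with ATRA alone did not pass (log2 fold change -0.35 ± 0.11 SE, limma adjusted p = 0.0534, or 0.00242 with the block).

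Among 9 carriers of inorganic ions, 1 rose (8.71% of all genes fitted) and 3 fell (11.6%) with ATRA. SLC20A1, a sodium-phosphate importer also known as a retrovirus receptor, lies on chromosome 2 (112645939 to 112663825). It was at 23, 30 and 33 RPKM in untreated cells, 11, 14 and 18 with ATRA, 20, 26 and 33 with palbociclib and 9, 11 and 15 with both. In each of the 4 groups the library numbered 1 was the lowest, and groups with ATRA did not overlap those without. The level with ATRA was 2.01-fold lower (log2 fold change -1.01 ± 0.24 SE, limma adjusted p = 0.0139, with 6.39e-06 to 0.0567 over the alternatives). The lowest of these came with the replicate block. SLC4A7, a sodium bicarbonate cotransporter that raises cell pH, was at 8, 7 and 7 RPKM in untreated cells and 4, 4 and 5 with ATRA (log2 fold change -0.75, limma adjusted p = 0.0113). SLC9B2, a sodium-proton exchanger, was at 5 RPKM in every library without ATRA and at 3 or 4 in every library with it. It entered only through libraries without ATRA, so this direction was favoured by the choice of genes.

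SLC9A8, a sodium-proton exchanger of the Golgi apparatus and endosomes, was listed at 23, 20 and 22 RPKM in untreated cells, 29, 32 and 39 with ATRA, 23, 23 and 28 with palbociclib and 30, 35 and 42 with both. It was above every untreated library in all libraries with ATRA (log2 fold change 0.61 ± 0.14 SE, limma adjusted p = 0.0104). SLC20A2, the other phosphate importer of its family, was at 5 RPKM in each untreated library and at 4, 5 and 5 with ATRA.

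The promoters of SLC20A1 and SLC39A8 are shown because they belong to genes that fell with ATRA and hold the palindromic E box CACGTG, a site bound by factors of the MYC and USF families. The 250 bases before each RefSeq start are given 5′ to 3′ with the E box in capitals. That of SLC20A1 is chr2:112645689-112645938 on the plus strand and that of SLC39A8 is chr4:102345483-102345732 on the minus strand (GRCh38.p14).
SLC20A1: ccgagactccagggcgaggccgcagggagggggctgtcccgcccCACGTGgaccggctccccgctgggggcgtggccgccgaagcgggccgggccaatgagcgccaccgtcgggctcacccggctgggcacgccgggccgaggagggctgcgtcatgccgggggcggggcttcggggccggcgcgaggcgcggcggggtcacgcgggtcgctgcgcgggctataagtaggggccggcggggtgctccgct
SLC39A8: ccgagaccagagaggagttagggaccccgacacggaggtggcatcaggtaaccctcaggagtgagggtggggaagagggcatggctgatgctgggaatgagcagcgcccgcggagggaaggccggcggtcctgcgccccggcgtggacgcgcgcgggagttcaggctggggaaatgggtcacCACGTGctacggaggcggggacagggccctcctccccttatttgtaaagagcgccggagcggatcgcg

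RefSeq promoters of 300 bases (250 before to 50 after the start) were matched for 83 of the 101 genes. CACGTG occurred in 16 of them (19.3%), in 10.7% of 7472 promoters of the genes fitted and in 7.26% of all 35116 promoters. Of the genes that fell with ATRA, 4 of 17 with a promoter held it (SLC20A1, SLC25A22, SLC35C1 and SLC39A8), as did 12 of 56 that did not pass and 0 of 10 that rose. Direct repeats of AGGTCA spaced by 1, 2 or 5 bases, which retinoic acid receptors can bind, occurred in none of the 83 on either strand. Their shares were 0.0535%, 0.0% and 0.0% of the promoters of genes fitted and 0.0228%, 0.00285% and 0.0057% of all promoters. At shares this low, their absence from 83 promoters carries no information on receptor binding. The E2F motifs TTTCGCG and TTTGGCG also occurred in none of the 83, with 2.36% and 3.29% of the promoters of genes fitted and 1.32% and 1.92% of all promoters. These shares describe letters within a short window and were not tested.

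Members of the nucleotide sugar family SLC35 supply the Golgi apparatus and endoplasmic reticulum. Of its 14 genes, 3 rose (8.71% of all genes fitted) and 3 fell (11.6%) with ATRA. SLC35F2, a member of the family known for carrying other molecules than nucleotide sugars, showed the largest difference. It was at 22, 20 and 20 RPKM in untreated cells and 16, 12 and 12 with ATRA, without overlap (log2 fold change -0.64, limma adjusted p = 0.00334). SLC35C1, which carries GDP-fucose, and SLC35A1, which carries CMP-sialic acid, also fell, both by 0.33 on the log2 scale, from 6 or 7 RPKM to 5 in every ATRA library. Another gene on the same strand shares 55.5% of the exon bases of SLC35A1. SLC35B1, SLC35C2 and SLC35E2B rose by 0.21 to 0.40 on the log2 scale. SLC35A4 and SLC35B2, the highest of the family, were at 20 to 27 RPKM in all libraries and did not pass.

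SLC9A3R1 had the second lowest adjusted p among the 12 genes called. The scaffold gene on chromosome 17 (74748628 to 74769353) was listed at 24, 32 and 28 RPKM in untreated cells, 63, 80 and 80 with ATRA, 28, 32 and 29 with palbociclib and 65, 80 and 81 with both. Libraries with ATRA stood apart from those without it. Antisense and microRNA genes share 12.2% of its exon bases on the opposite strand and 3.08% on its own. With ATRA it was 2.65-fold higher (log2 fold change 1.41 ± 0.13 SE, limma adjusted p = 3.48e-05). SLC2A4RG and SLC4A1AP did not pass in any comparison in the limma fit of 12 libraries without the block. With the block SLC2A4RG passed for both drugs against untreated cells (limma adjusted p = 0.00518). In the same comparison SLC4A1AP passed without the libraries numbered 1 and without the block (limma adjusted p = 0.0324).

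With palbociclib alone, none of the 101 genes was called by limma at 0.001, where 0.499% of all genes were. At an unadjusted p under 0.05, 6 genes were higher and 8 lower, where 7.28% and 10.1% of all genes were. At an adjusted p under 0.05, 1 gene passed, against 4.07% of all genes fitted: SLC29A1, whose values are given above, was 1.41-fold lower (log2 fold change -0.50 ± 0.11 SE, limma adjusted p = 0.0397, with 0.00171 to 0.131 over the alternatives). That call was lost without any 1 untreated library, palbociclib replicate 2 or 3, ATRA replicate 3 or ATRA+palbociclib replicate 3, and also with a lower or no filter, with median centring (limma adjusted p = 0.117) and with only the compared libraries in the fit. With the replicate block, 4 genes were higher and 6 lower at 0.05 (background 5.5% and 8.13%). SLC39A6 was next in adjusted p (0.0542, or 0.0155 with the block, limma), with all 3 palbociclib libraries below all untreated ones. SLC2A5 and SLC9B2 had the same 3 values in palbociclib as in untreated cells.

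With both drugs against untreated cells, 14 genes were called by limma, 8 higher and 6 lower (background 8.04%, or 3.76% higher and 4.28% lower). The 8 higher genes were SLC2A5, SLC43A2, SLC2A6, SLC9A3R1, SLC45A4, SLC23A2, SLC25A20 and SLC39A7. The 6 lower genes were SLC7A2, SLC29A2, SLC43A3, SLC39A14, SLC1A4 and SLC39A6. This comparison shares its untreated libraries with that of ATRA alone, so the 2 lists are not independent. SLC2A5, SLC43A2 and SLC2A6 entered only through ATRA libraries, and over the 92 genes without such a route 5 were called higher and 6 lower, or 13 and 32 at 0.05. Scaling libraries to the same sum gave 7 higher and 14 lower. At an adjusted p under 0.05, 17 rose and 34 fell (background 30.4%, or 12.7% and 17.7%), and the counts were 23 and 22 with libraries centred on the median.

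SLC43A3 had a log2 fold change of -0.80 ± 0.10 SE with both drugs (limma adjusted p = 0.000218) and -0.26 with palbociclib alone. SLC1A4, at 11, 11 and 12 RPKM with both drugs, had -0.55 ± 0.07 SE (limma adjusted p = 0.000187). SLC20A1 showed -1.31 ± 0.24 SE (limma adjusted p = 0.00233) and SLC4A7 -0.86 ± 0.17 SE (limma adjusted p = 0.00387). SLC29A1 had a log2 fold change of -0.63 (limma adjusted p = 0.00201). SLC39A13, a zinc transporter of the secretory pathway, had one of 0.58 (limma adjusted p = 0.00537), with 3, 4 and 3 RPKM in untreated cells and 5 in each library with both drugs. SLC39A13 entered only through libraries with ATRA, so a higher value with both drugs was favoured by the choice of genes.

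When palbociclib was added to ATRA, none of the 101 genes passed in the limma fit of 12 libraries, at 0.001 or at 0.05, where 0.0% and 0.115% of all genes fitted passed. At an unadjusted p under 0.05, SLC35A2, the UDP-galactose transporter, was higher and SLC29A1 and SLC39A14 were lower. Libraries with the same replicate number deviated together among the treated groups. With the replicate number as a block in the 9 treated libraries, a fit added after the values were seen, SLC20A1 passed 0.05 (log2 fold change -0.30, limma adjusted p = 0.0123, with 0.0123 to 1.0 over the alternatives), as did 2.4% of all genes. It was lower with both drugs than with ATRA alone at each replicate number, at 9 against 11, 11 against 14 and 15 against 18 RPKM. With the block over all 12 libraries none of the 101 passed 0.05 (background 0.652%), while 3 had a positive and 7 a negative difference with an unadjusted p under 0.05 (2.44% and 5.78% of all genes).

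**Figure D4:**
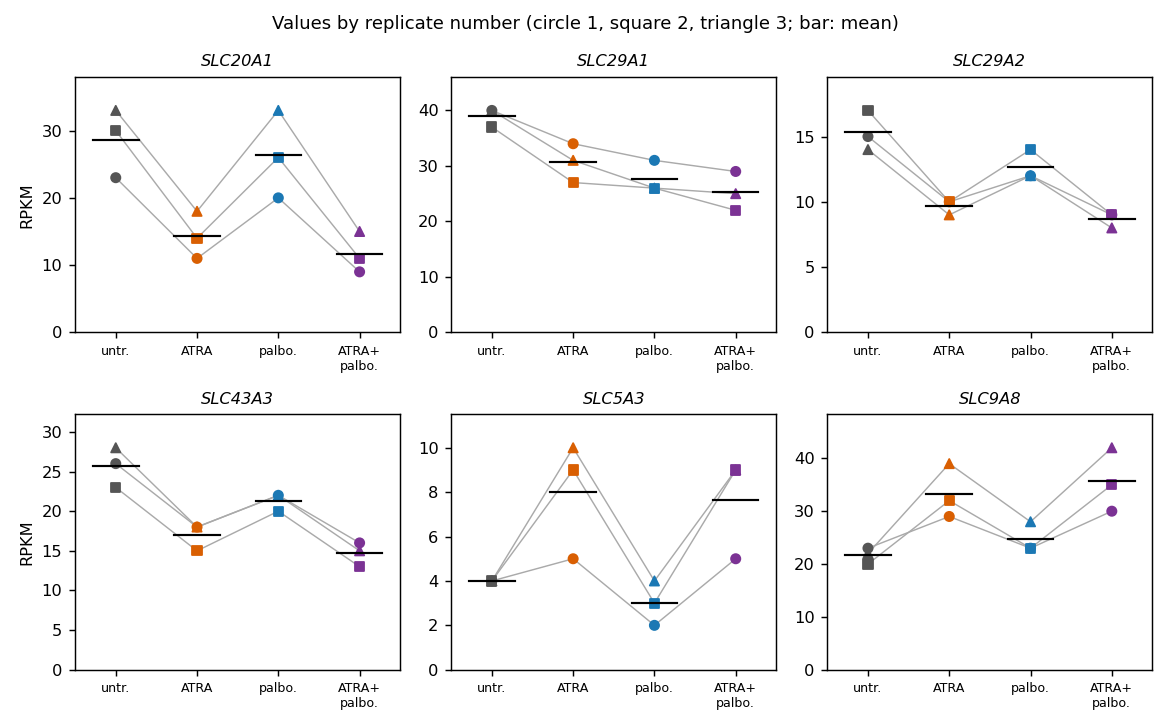
RPKM of 6 genes by treatment, with libraries of the same replicate number joined by grey lines (circle 1, square 2, triangle 3; bar, group mean). The lines of SLC20A1 run in parallel from 23, 30 and 33 RPKM in untreated cells, and number 1 of SLC5A3 stays at 5 RPKM with ATRA where numbers 2 and 3 reach 9 and 10.

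For adding ATRA to palbociclib, the group means come from libraries that the comparison of ATRA with untreated cells does not use. Both comparisons take their spread from the same fit of 12 libraries, and treated libraries of the same number deviated together. The 2 comparisons are therefore not independent. limma called 5 genes higher and 2 lower (background 3.11%, or 2.11% and 0.997%). The 5 were SLC2A5, SLC43A2, SLC9A3R1, SLC23A2 and SLC45A4, and the 2 were SLC7A2 and SLC39A14. SLC2A5 and SLC43A2 had entered only through ATRA libraries, and over the 92 genes without such a route 3 were higher and 2 lower, or 8 and 19 at 0.05. At an adjusted p under 0.05, 13 rose and 21 fell (background 12.5%, or 5.86% and 6.64%). With the replicate block, 8 were called higher and 12 lower over 12 libraries (background 3.58% and 2.57%), and 7 each over the 9 treated libraries (3.13% and 2.12%). At 0.05 the block gave 16 higher and 36 lower over 12 libraries (10.1% and 13.4%) and 23 and 43 over the 9 (15.7% and 20.3%).

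All 14 genes that rose with ATRA alone had a positive log2 fold change when ATRA was added to palbociclib, and 11 of them passed 0.05 there. Of the 24 that fell with ATRA alone, 23 had a negative value there and 18 passed. The exception was SLC35A1, with 6, 6 and 5 RPKM with palbociclib and 6, 5 and 6 with both drugs. Among the 14, SLC2A5, SLC2A6 and SLC43A2 entered only through ATRA libraries, and SLC9B2 among the 24 only through libraries without ATRA. Their shared signs were thus favoured by the choice of genes. The share of all genes fitted that kept their sign was not counted.

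**Figure D5:**
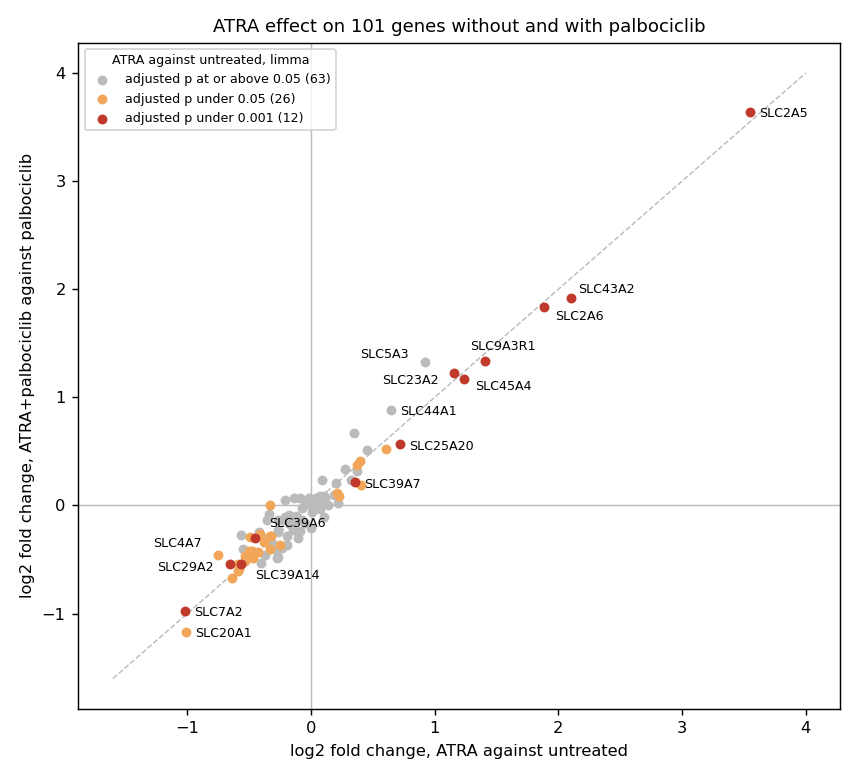
Log2 fold change of the 101 genes with ATRA against untreated cells (horizontal) and with both drugs against palbociclib (vertical). The means of the 2 comparisons have no library in common, but treated libraries of the same number deviated together. The dashed line marks equal values and colours give the limma adjusted p of the first. SLC2A5 lies at 3.55 and 3.64, SLC20A1 at -1.01 and -1.17.

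For SLC2A5 the log2 fold change was 3.64 ± 0.15 SE with palbociclib present (limma adjusted p = 1.57e-07) and for SLC23A2 1.22 ± 0.12 SE (limma adjusted p = 7.83e-05). SLC2A6 had 1.83 ± 0.28 SE (limma adjusted p = 0.00133). Both SLC2A5 and SLC2A6 had entered only through ATRA libraries, which favoured a higher value with ATRA. SLC5A3 and SLC44A1, the choline transporter, passed 0.05 here, and both had entered only through ATRA libraries, so a higher value with ATRA was favoured by the choice of genes. SLC5A3 was at 2, 3 and 4 RPKM with palbociclib and 5, 9 and 9 with both drugs (log2 fold change 1.33, limma adjusted p = 0.0171), and SLC44A1 at 2, 3 and 3 and then 4, 5 and 6 (log2 fold change 0.89, limma adjusted p = 0.0232). In both genes the groups did not overlap, and values this low move by a large fraction with each step of rounding. At the lower end SLC20A1 had -1.17 ± 0.24 SE (limma adjusted p = 0.00928), SLC35F2 -0.67 (limma adjusted p = 0.00338) and SLC27A4 -0.60 (limma adjusted p = 0.0062).

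The departure from additivity, namely the log2 fold change of palbociclib in ATRA-treated cells less that in cells without ATRA, is the test of whether ATRA effects differed with palbociclib. None of the 101 genes passed 0.05 with limma, nor did any other gene fitted (0.0%). Without the libraries numbered 1, a setting added after the values were seen, 4 of them passed (background 2.21%). SLC27A2 was positive (0.31), and SLC35E2B (-0.22), SLC35A5 (-0.22) and SLC30A6 (-0.15) were negative on the log2 scale. All 4 had group means of 10.0 RPKM or less, where a step of rounding is a sizeable part of the value. The libraries left of SLC27A2 were equal within each group, at 5 RPKM untreated, 3 with ATRA, 4 with palbociclib and 3 with both drugs. In the limma fit of 12 libraries, 1 gene had an unadjusted p under 0.05, SLC35A1 (0.33 ± 0.15 SE on the log2 scale). For SLC5A3 and SLC44A1 the limma adjusted p was 1.0. Missing the threshold does not show that the effects were equal.

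Other transporter genes were counted beside these. Of 11 ABC transporters at the level, which move substrates with ATP, 1 rose and 5 fell with ATRA. Of 16 solute carriers whose symbols follow other schemes (such as mitochondrial pyruvate carriers and sideroflexins), 1 rose and 7 fell, and of 16 partner genes (such as channels, ferritins, metallothioneins and sodium pump subunits) 1 rose and 3 fell, against 14 and 24 of the 101 genes and 8.71% and 11.6% of all genes fitted.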

How the data were processed

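The 12 RNA sequencing libraries of HL‐60 cells comprised 4 treatments with 3 libraries each. The authors made poly(A) libraries, aligned reads with HISAT2 on hg38, obtained gene counts from htseq-count with its defaults and analysed these with voom in Degust. The deposited values are a score, namely RPKM rounded by the authors to whole numbers for 58233 genes. Read totals and gene lengths were not part of the table, so no counting error is given and each error is the SD over replicates or the SE of limma.

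Groups and replicate numbers were taken from the labels. limma 3.58.1 (R 4.3.3, Python 3.11.15 for tables) was fitted to log2(RPKM + 0.1), with 1 mean per group over 12 libraries and eBayes with a trend. The 7820 genes at 5 RPKM or more in at least 3 libraries entered, and p-values were Benjamini-Hochberg adjusted within each comparison. Fold changes are on the log2(RPKM + 0.1) scale, where the added 0.1 makes changes of low genes smaller. Rounding to whole numbers can make changes of low genes larger or smaller. The genes, the gene lists, the level of 5 RPKM and the rule for named genes were chosen with earlier results of these data known. The rule named the genes called at 0.001 in each comparison, filled up to 8 in each direction from those at 0.05, the 10 highest genes, the 3 highest of each family group, the genes at the edge of the level and those that encode no carrier. Further genes were named after their values were seen. The result for 1 gene is not reported here. Family groups follow the family number, not the substrate of each member.

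The fit was tested on simulated data. The replicate numbers are not explained in the labels. Deviations from the group means correlated at 0.438 to 0.908 between treated libraries of the same number, at 0.0453 to 0.367 between untreated and treated ones and at -0.677 to 0.243 between different numbers, so the number pairs the treated libraries. Replicates of a group shared 17.9% to 36.5% of their values over the genes fitted, and none was a duplicate. Exon overlaps and coordinates are those of GENCODE v44 on the same build, and promoters are RefSeq sequences of GRCh38.p14. By default htseq-count leaves out reads that fall on exons of more than 1 gene. Of the 101 genes, 50 share some exon bases with another gene, and the sources used here do not say how strand was treated.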

Additional observations from a re-analysis of the deposited data

How the results depend on the processing

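All 33 results called at 0.001 in one of the comparisons kept their direction, and an adjusted p of at most 0.0266, in every alternative setting run. The 4 called in every setting were SLC2A5 in its 3 comparisons and SLC39A14 with both drugs against untreated cells. Of 2762 alternative values for 124 single-gene results, 2248 stayed on their side of the threshold, 514 no longer passed it and 0 reversed. Counts of called genes moved further. Whole-number values and 3 libraries a group limit the precision, and depth per library was not available.

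At an adjusted p under 0.05, the counts called higher and lower were 14 and 24 for ATRA, 17 and 34 for both drugs against untreated cells, 13 and 21 for both drugs against palbociclib, and 0 and 1 for palbociclib. At 0.05, fitting only the compared libraries gave 8 and 11 against palbociclib. At 0.001, with only the compared libraries in the fit, the counts were 1 and 0 for ATRA, 1 and 1 for both drugs against untreated cells and 1 and 0 against palbociclib. At 0.001 with the replicate block, 12 genes were lower with ATRA (4.42% of all genes), 13 higher and 16 lower with both drugs against untreated cells (6.57% and 8.82%), and 8 higher and 12 lower against palbociclib (7 lower in the 9 treated libraries, a fit added later). At 0.05 the block gave 4 higher and 6 lower for palbociclib (5.5% and 8.13%), 40 lower with ATRA, and 36 lower against palbociclib (23 and 43 in the 9 treated libraries). The block changed the count by less than 1.5 times in the other cases at 0.001. At 0.001, for the filter at 1 RPKM and for no filter alike, 2 genes were lower with ATRA, and 3 were higher and 1 lower with both drugs against palbociclib. Median centring gave 2 lower with ATRA, and scaling to the sum gave 14 lower with both drugs against untreated cells. The median of all genes moved by less than 0.1 on the log2 scale under both. Leaving out the libraries numbered 1 of all groups, a setting added after the values were seen, gave 4 higher with ATRA, 1 higher (SLC35E2B) and 1 lower (SLC27A2) with palbociclib, 4 higher with both drugs against untreated cells and 5 lower against palbociclib. At 0.05 it gave 4 higher and 3 lower with palbociclib (6.45% of all genes in both directions), 1 higher (SLC35E2B) for both drugs against ATRA (1.42%), and 1 positive and 3 negative departures from additivity. The cause of these shifts was not tested. Without the libraries numbered 1, SLC27A2 had equal whole numbers within each group.

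Without 1 library, the counts ran from 3 to 8 higher and 1 to 4 lower with ATRA, 6 to 8 and 4 to 8 with both drugs against untreated cells, 3 to 6 and 1 to 2 against palbociclib, and 0 elsewhere. For ATRA, 3 were higher without ATRA replicate 3, untreated replicate 1 or untreated replicate 3, 4 without ATRA replicate 2 and 5 without untreated replicate 2. There 1 was lower without ATRA replicate 2 or 3 or untreated replicate 1 or 3, and 2 without ATRA replicate 1, untreated replicate 2 or palbociclib replicate 3. Against palbociclib, 3 were higher without any 1 palbociclib library or combination replicate 2 or 3, and 1 was lower without any 1 untreated or combination library, ATRA replicate 2 or 3, or palbociclib replicate 2 or 3. At 0.05, genes lower with ATRA ranged from 15 (without ATRA replicate 2) to 31, and those against palbociclib from 8 (without combination replicate 2 or 3) to 13 higher and 13 (without palbociclib replicate 3) to 22 lower.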
